A study of Arabidopsis thaliana with 6 samples.

Results

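A set of 25 probe sets stood at a higher signal in replicate 3 than in replicates 1 and 2 of both genotypes. The members were chosen from the measured values: of 22746 probe sets, 10130 had a mean signal of 50 or more over the 6 arrays and were not plastid-encoded, and in 25 of these (0.247%) the lower of the 2 replicate 3 arrays was at least 2 times the highest of the other 4. The same rule applied to replicate 1 found 10 probe sets and applied to replicate 2 found 20. The mirrored rule, with replicate 3 low, found 25. Because the rule used all 6 arrays, the height of replicate 3 is a description of the members and carries no test.

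The study measured transcripts of whole Arabidopsis thaliana plants with the Affymetrix ATH1 array, where each transcript is read by several short probes, summarised as 1 probe set. One group is wild type (accession Col-0), and the other is sni1 in the Col-0 background, which the labels describe as an induced mutation by radiation and place in At4g18460. There are 3 arrays per genotype, titled Rep1, Rep2 and Rep3 in each. All plants shared the same treatment: cold stratification of the seed lasted 3 days at 4 °C, growth was on commercial soil at 22 °C indoors, and the stage sampled was 3.90. The labels say neither what a replicate number stands for nor whether the samples came from different plants, so every p-value rests on a spread between samples that may be technical. SNI1 is known as a repressor of systemic acquired resistance.

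Of the 25 members, 7 are paired with 1 gene by the annotation used, 1 with several genes and 17 with none. Members without a gene are 68% of the set, against 46% of the 10130 probe sets that could meet the rule, and are called by their probe set name. HIS1-3 and LTI30 are known from the responses of plants to water loss and cold. In such responses abscisic acid, cold signalling and the energy-sensing kinase SnRK1 change the levels of many transcripts within hours, among them dehydrins, which protect membranes and proteins as cells lose water, and transcripts of the growth-arrest and dormancy type that build up in the dark.

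The stress-related named members were HIS1-3 and LTI30. HIS1-3 (AT2G18050) encodes a variant of the linker histone H1 that is known to be induced by drought and abscisic acid. Its signal in replicates 1, 2 and 3 was 34.2, 37.9 and 147 in wild-type plants, against 54.4, 33.0 and 139.6 in sni1. Replicate 3 was 4.06 times the mean of replicates 1 and 2 in wild type and 3.19 times in sni1. LTI30 (AT3G50970), a dehydrin induced by low temperature, had signals of 70.3, 49.6 and 200.4 in wild-type plants, against 54.5, 35.3 and 143 in sni1. The replicate 3 arrays of both genes lay above the other 4, and in LTI30 the wild-type array was the higher one in every same-numbered pair.

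AT3G15450 and AT1G62480 had the same order of arrays. AT3G15450, annotated as an aluminium-induced protein with YGL and LRDR motifs, had signals of 953, 1169.9 and 3970 in wild-type plants, against 516, 1048 and 2799 in sni1. Its fold of replicate 3 over the mean of replicates 1 and 2 was 3.74 in wild type and 3.58 in sni1. AT1G62480, annotated as related to a vacuolar calcium-binding protein, had signals of 131, 229 and 902 in wild-type plants, against 89.2, 160.5 and 546 in sni1. In both genes the signal of wild type exceeded that of sni1 within each replicate number, and the order of the replicates was 1, 2, 3 from low to high in both genotypes.

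The remaining named members have no role stated here. AT3G03870 had signals of 65.2, 97.4 and 280.2 in wild-type plants, against 92.1, 92.1 and 273 in sni1. AT2G15960 stood at 961, 939.7 and 2059 in wild-type plants, against 957, 754 and 2067 in sni1. AT1G15010 stood at 22.6, 24.9 and 135 in wild-type plants, against 27.9, 49.5 and 101 in sni1. The genotypes were close in replicate 3 of AT3G03870 and AT2G15960, whereas AT1G15010 had the widest gap between the folds of the genotypes among the named members, 5.68 in wild type and 2.62 in sni1.

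The largest ratio was that of 253161_at, which has no gene in the annotation used. Its signal was 40.6, 302 and 2551 in wild-type plants, against 91.6, 290.2 and 2319 in sni1, so that the lower replicate 3 array was 7.68 times the highest other array. The 251438_s_at probe set, paired with both AT5G33355 and AT3G59930, followed with a ratio of 4.60 and signals of 14.1, 8.10 and 192 in wild-type plants, against 18.1, 23.8 and 109.7 in sni1. Its values in replicates 1 and 2 are low, so its folds of 17.2 in wild type and 5.23 in sni1 are uncertain. The 245668_at and 252415_at probe sets had ratios of 4.11 and 3.62, and the other 21 members lay between 2.01 and 2.80.

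**Figure D1:**
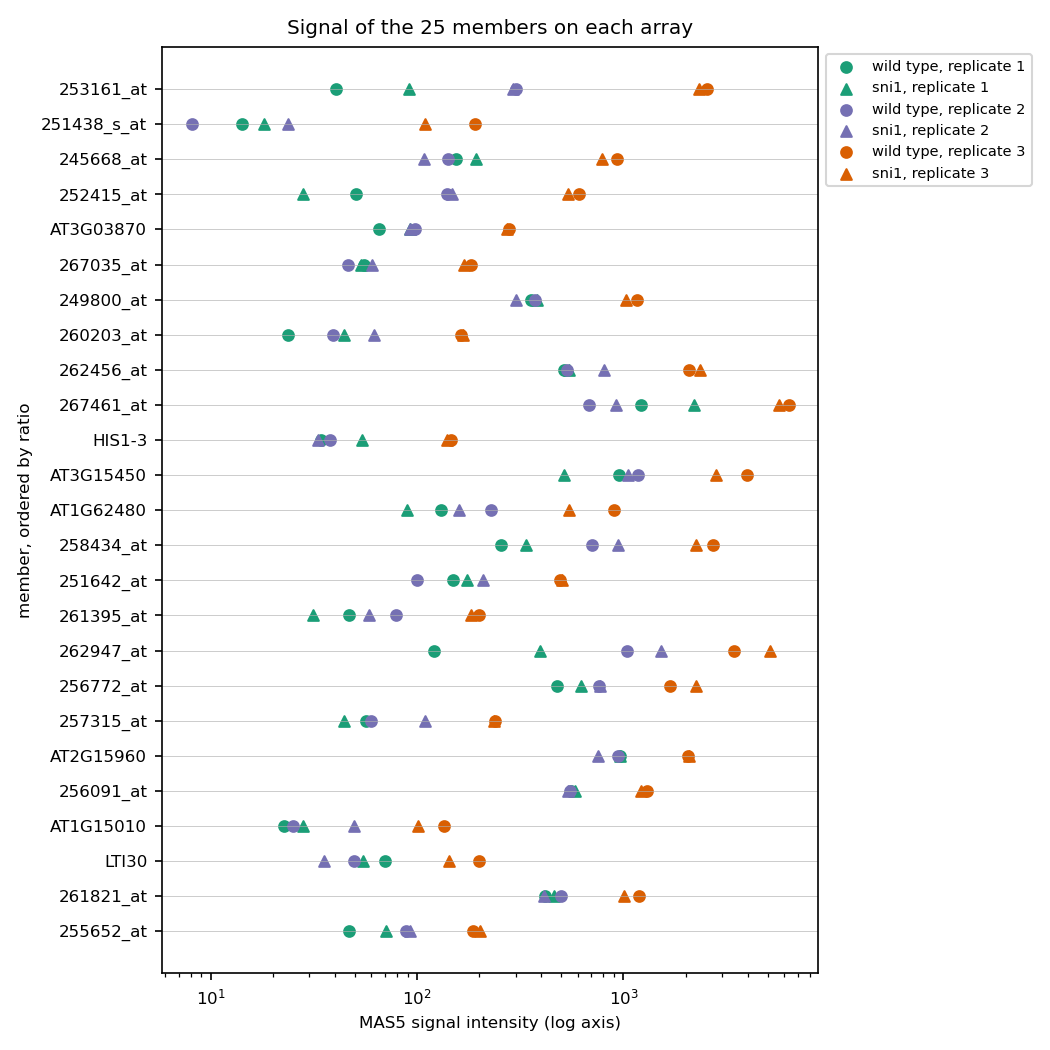
Signal intensity on each of the 6 arrays (log axis) for the 25 members, ordered by the ratio of the lower replicate 3 array to the highest other array. Circles are wild type, triangles are sni1 and the colour gives the replicate number; replicate 3 lies to the right in every row, as the rule requires, while the order of replicates 1 and 2 differs between members.

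At the edge of the rule the values ran on without a gap. Just inside lay LTI30 (ratio 2.03), 261821_at (2.03) and 255652_at (2.01). Just outside lay AT2G05540, of a glycine-rich protein family, at 1.9996, 254073_at at 1.97 and FDH, the mitochondrial formate dehydrogenase, at 1.96. Another 125 probe sets had a ratio from 1.5 up to 2. Over all 10130 probe sets, both replicate 3 arrays were above the other 4 in 19.3%.

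The replicate 3 arrays also differed from the others in measures of the whole array, and the part of these in the members' values was not tested. Each array had been scaled to a common trimmed mean. The median of all probe sets was 34.6 on wild-type replicate 3, 36.7 on sni1 replicate 3 and 39.1 to 40.8 on the other 4 arrays, and the 10th percentile was 1.82 and 1.90 against 3.37 to 4.35. For a GAPDH control the 3'/5' ratio, a measure of RNA integrity, was 1.12 and 1.17 in replicate 3 and 1.503 to 1.75 elsewhere, while an actin ratio of 4.22 and 3.29 lay within the range of the others, 2.58 to 7.61. The members together made up 0.927% and 0.964% of all signal in replicate 3 and 0.206% to 0.310% on the other arrays. This difference in share follows from the choice of the members. After quantile normalization, which gives all arrays the same distribution, 20 of the 25 members still met the rule, with 21 probe sets meeting it in all. Cyclic loess gave the same counts, and after median centring all 25 met it among 47.

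**Figure D2:**
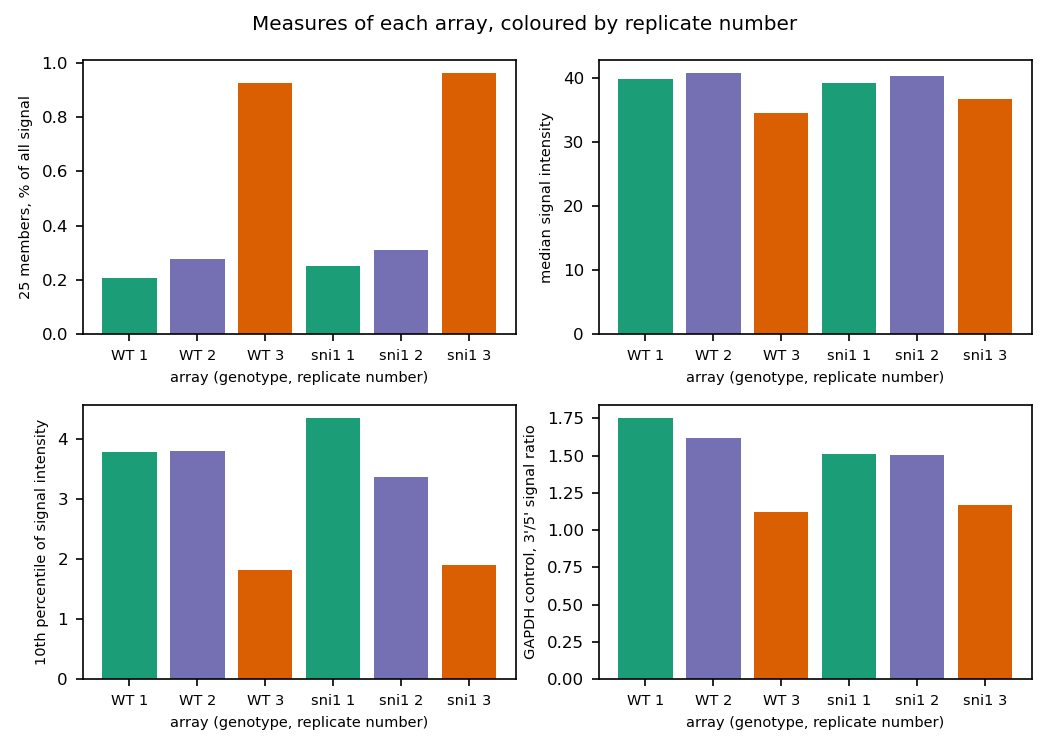
Bars give, for each array, the percent of all signal held by the 25 members, the median and the 10th percentile of the signal intensity, and the 3'/5' ratio of the GAPDH control. The replicate 3 arrays (orange) have the highest member share, 0.927% and 0.964%, which follows from the choice of the members. They also have the lowest values of the other 3 measures.

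Markers of plant organs could be read in part. Of 5 leaf markers 1 had a named probe set: RCA, rubisco activase, had signals of 4837, 4056 and 6091 in wild-type plants, against 4659, 3763 and 5395 in sni1, highest in replicate 3. Root markers with a named probe set were 3 of 13 (PYK10, EXPA7 and EXPA18), all under the filter on low signal, and their summed signal ran from 39.99 to 69.1 over the arrays, with 47.1 and 69.1 in replicate 3. The 1 named pollen and tapetum marker of 3, AT5G07230, lay between 1.28 and 8.60, and no flower or seed marker was named. For tissue labelled as whole plant, the leaf marker was thus high on every array and the root markers were under the filter. The part of organ content in the members' values was not tested. In bulk samples fewer cells of a type and less RNA per cell cannot be told apart.

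The order of replicates 1 and 2 was not used by the rule and could be tested. In a limma fit with genotype and replicate number as terms, with 2 arrays per number, 10 of 25 members differed between replicates 1 and 2 at an adjusted p under 0.05. For 9 of them replicate 2 was higher and for 1 replicate 1 was higher. Over all 13648 probe sets tested, 8.06% differed, 4.6% with replicate 2 higher and 3.46% with replicate 1 higher. These shares are not matched to the members, which were chosen for a difference between replicate numbers. The members also had a higher mean signal, with a median of 343 against 129 over the 10130 probe sets that could meet the rule. Both replicate 2 arrays lay above both replicate 1 arrays in 11 members, against 22.6% of the 10130 probe sets, and both replicate 1 arrays above both replicate 2 arrays in 5, against 22.2%.

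Among these 10, the largest difference was that of 262947_at, with signals of 121, 1036 and 3438 in wild-type plants, against 395, 1526 and 5102 in sni1 (log2 of replicate 1 minus replicate 2 -2.51 ± 0.23 SE, limma adjusted p = 0.000144). For 253161_at the difference was -2.22 ± 0.25 (adjusted p = 0.000439), for 252415_at -1.84 ± 0.19 (0.000321) and for 258434_at -1.47 ± 0.16 (0.000435). In these 4 probe sets the signal was low in replicate 1, intermediate in replicate 2 and high in replicate 3. AT1G62480 (-0.81 ± 0.13, adjusted p = 0.00330) and AT3G15450 (-0.66 ± 0.15, 0.0263) had the same order. AT3G15450 did not pass without the filter (0.0862), without the intensity trend (0.142), or without either sni1 replicate 1 or sni1 replicate 2 (0.280 each).

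The opposite order was found in 267461_at. Its signals were 1215, 679 and 6310 in wild-type plants, against 2196, 925 and 5662 in sni1, and replicate 1 exceeded replicate 2 by 1.04 ± 0.19 on the log2 scale (limma adjusted p = 0.00709). This call was lost without wild-type replicate 2 and without the intensity trend. LTI30 had the same direction (0.53 ± 0.16) and did not pass (adjusted p = 0.0678). For HIS1-3 (0.27, interval -0.21 to 0.75), AT2G15960 (0.19, interval -0.079 to 0.45), AT3G03870 (-0.28, interval -0.65 to 0.089) and AT1G15010 (-0.45, interval -1.06 to 0.17) the 95% intervals include 0. The height of replicate 3 is shared by the rule. Of the members called between replicates 1 and 2, 9 had replicate 2 higher and 1, 267461_at, had replicate 1 higher. For members without a call the order is not settled.

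**Figure D3:**
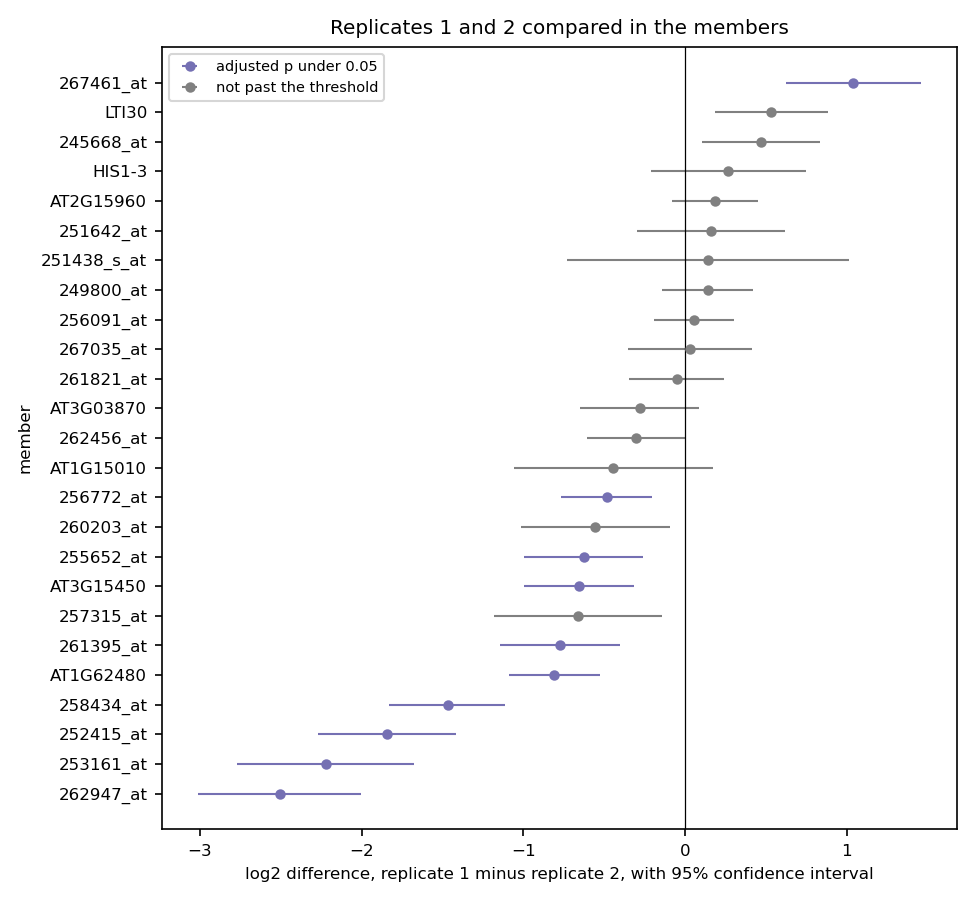
Log2 difference of replicate 1 minus replicate 2 for each member (points) with its 95% confidence interval (lines) from the limma fit with genotype and replicate terms. Purple marks the 10 members past the threshold, 9 to the left of 0 (replicate 2 higher) and 267461_at to the right.

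Listed genes of several pathways could be read in part, and these lists were written with earlier results of these data known. The only named member on them is LTI30, and 17 of the 25 members have no gene in the annotation. Of 54 listed cold, dehydration and abscisic acid genes 8 could be found by name and 6 of these passed the filter. LTI30 is the 1 member among them. The rule places its replicate 3 arrays above the other 4, so it is left out of the counts of array order. Of the other 5, both replicate 3 arrays were above the other 4 in 2 (COR47 and COR27), where the background over named genes was 15.6%. Both replicate 2 arrays were the lowest in 3 of these 5, against 7.84%. COR47, a dehydrin, missed the rule with a ratio of 1.77 and signals of 827, 451 and 2490.1 in wild-type plants, against 752, 397 and 1466 in sni1. COR27, a regulator at the junction of cold and clock, stood at 437, 109.6 and 536 in wild-type plants, against 466, 126 and 475 in sni1, so that replicate 1 and replicate 3 were close. In COR15A, COR15B and AT4G33980 (ratios 0.25, 0.33 and 0.90) replicate 3 was highest in wild type, but replicate 1 was highest in sni1. Their sni1 signals in replicates 1 and 3 were 548 and 375, 1029 and 658, and 179 and 161. In 5 of the 6 genes replicate 1 exceeded replicate 2 at an adjusted p under 0.05, against 3.46% of all probe sets tested, LTI30 being the exception.

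The 2 tested genes of 18 listed for carbon starvation had both replicate 3 arrays above the other 4, against 15.6% of named genes. AKINBETA1, a regulatory subunit of SnRK1, stood at 196, 285 and 642 in wild-type plants, against 179.8, 291 and 543 in sni1, a ratio of 1.86. Its replicate 2 exceeded replicate 1 (log2 -0.61 ± 0.12, limma adjusted p = 0.0132). MCCA, a subunit of the leucine-degrading methylcrotonyl-CoA carboxylase, stood at 58.6, 64.7 and 122 in wild-type plants, against 76.1, 57.4 and 169 in sni1, a ratio of 1.60. Of the clock list 1 of 36 genes was tested: GI, which acts in photoperiod timing, stood at 369, 194 and 306 in wild-type plants, against 349, 218 and 272 in sni1, highest in replicate 1. Of the starch list 3 of 10 were tested and 1 had replicate 3 highest. None of the tested genes of the remaining lists is a member. Other lists went the other way. Both replicate 3 arrays were below the other 4 in 2 of 2 tested aliphatic glucosinolate genes and 1 of 2 flavonoid genes. The same held for the 1 tested gene of the heat-shock list and the 1 of the iron list. Over named genes this order was found in 1394 of 7279.

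The genotypes were compared over all 6 arrays. The rule set replicate 3 above the other replicates in both genotypes, which widens the spread within each genotype. Without the replicate number, a lack of calls was therefore largely fixed by the choice of members. In the limma fit without the replicate number, 0 of 25 members passed the threshold, and 0 had an unadjusted p under 0.05. Of all 13648 tested, 0.55% passed, 0.52% being higher and 0.0293% lower in the mutant, and 8.49% had an unadjusted p under 0.05. The log2 differences of sni1 minus wild type ran from -0.59 to 0.94 with a median of 0.12, and the median over all probe sets was -0.0051. Because replicate 3 is so much higher than the other replicates, the spread within a genotype was wide: the median residual SD was 1.14 in the members and 0.267 over all probe sets. The 95% interval lay within 2-fold either way for 1 of 25 members, so that a difference of that size was not detectable for the others.

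The arrays of the same replicate number deviated together across probe sets, and a fit that blocks on the replicate number removed that spread. The residual SD of the members was then 0.256 at the median, and the 95% interval lay within 2-fold for 24 of 25. With the block 3 of 25 members passed, 1 higher and 2 lower in sni1, against 10.1% of all probe sets, 6.15% higher and 3.91% lower. At an unadjusted p under 0.05 there were 10 of 25, against 25% of all.

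Those that passed with the replicate block were AT1G62480, AT3G15450 and 262947_at. AT1G62480 was lower in sni1 (mean signal 421 ± 419.6 for wild type, 265 ± 246 for sni1, each with SD and n = 3; log2 difference -0.59 ± 0.10 SE, limma adjusted p = 0.00519 with and 0.923 without the block). AT3G15450 was lower too (2031 ± 1683 and 1454 ± 1195; -0.51 ± 0.13, adjusted p = 0.0268 with and 0.920 without). The 262947_at probe set was higher in sni1 (1531 ± 1713 and 2341 ± 2457; 0.94 ± 0.19, adjusted p = 0.00976 with and 0.920 without). Each went one way in all 3 same-numbered pairs. AT3G15450 did not pass when the block was combined with quantile normalization (0.0902) or cyclic loess (0.0569), or without both arrays of replicate 1 (0.153). The same one-way order was found for 10 of 25 members in all, 4 lower and 6 higher in sni1, where the background is 24.5% lower and 24.6% higher.

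LTI30 was lower in sni1 in all 3 pairs with a log2 difference of -0.43 ± 0.13 and did not pass with the block (limma adjusted p = 0.0608). It passed when the block was combined with quantile normalization (0.0495) or cyclic loess (0.0457). HIS1-3 (0.12, interval -0.27 to 0.52 with the block), AT2G15960 (-0.11, interval -0.32 to 0.11) and AT3G03870 (0.12, interval -0.18 to 0.42) gave intervals that include 0 and exclude a 2-fold difference. Of the cold list, COR15A and COR15B passed with the block (lower in sni1, adjusted p = 5.8e-05 and 0.000176), while COR47 (-0.36, adjusted p = 0.0985) did not.

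**Figure D4:**
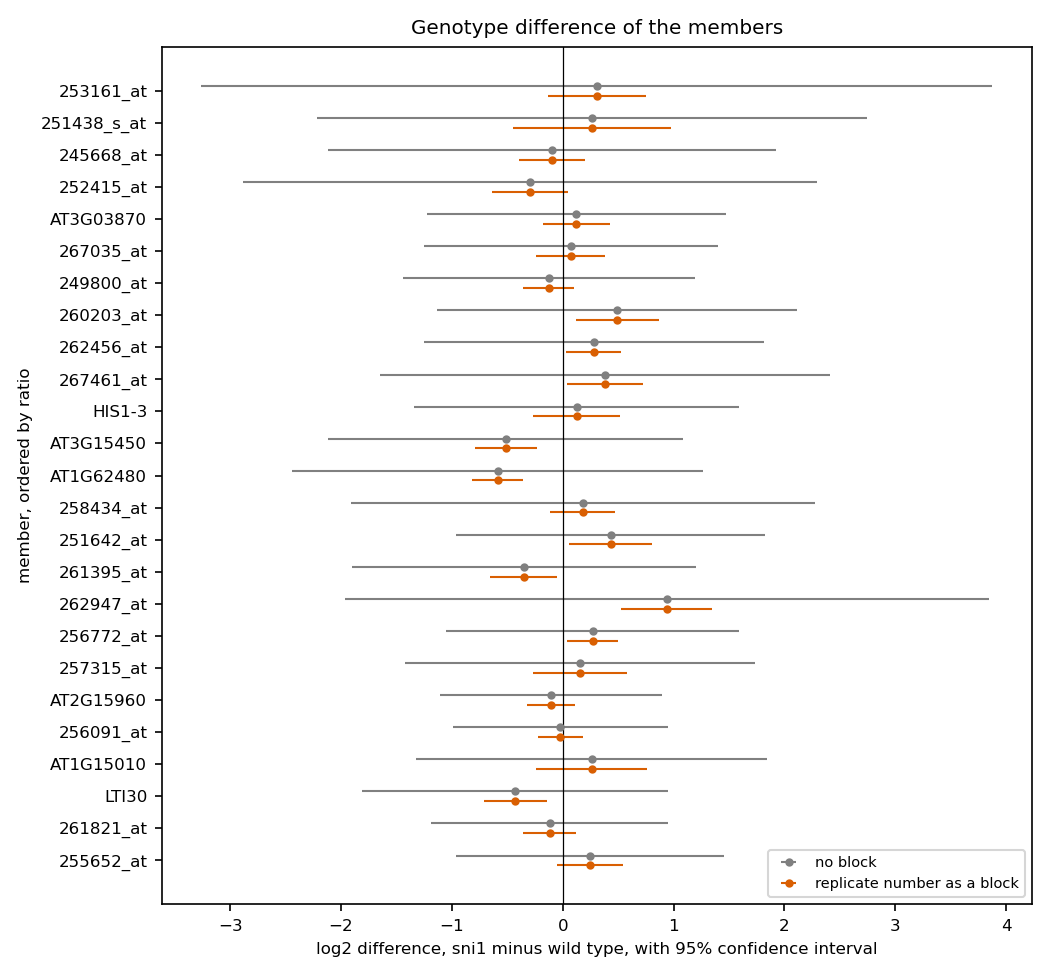
Log2 difference of sni1 minus wild type (points) with its 95% confidence interval (lines) for each member, in grey without and in orange with the replicate number as a block. The orange intervals are narrower throughout, and those of AT1G62480, AT3G15450 and 262947_at belong to the 3 members past the threshold.

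The size of the replicate 3 difference in each genotype is a description, because the members were chosen on it. The fold of replicate 3 over the mean of replicates 1 and 2 was larger in wild type than in sni1 in 22 of 25 members. The share over the 10130 probe sets was 48.4%, but most of these are not high in replicate 3, so it is no value for members without a genotype difference. The 50 brightest probe sets held 11.4% of all signal on wild-type replicate 3 and 9.12% on sni1 replicate 3, and the part of this in the count was not tested. It ran from 2.17 to 17.2 in wild type (median 3.97) and from 2.17 to 12.2 in sni1 (median 3.19). The 3 exceptions were 261395_at, 256772_at and AT2G15960. In replicate 3 itself sni1 was below wild type in 18 of 25 members, against 47.9%. In replicate 1 it was below in 8 of 25, against 51.7%, and in replicate 2 in 12 of 25, against 50.7%. The rule used these values, so these counts too are descriptions. The limit stated for the 48.4% holds for every share of the 10130 probe sets given here. The count of members with the larger fold in wild type was 18 of 25 after quantile normalization, against 49.5%. It was 21 of 25 after cyclic loess, against 50.7%, and 22 of 25 after median centring, against 62.3%. For sni1 below wild type in replicate 3 the counts in these 3 settings were 16, 17 and 21 of 25, against 51.3%, 50.2% and 57.7%. A limma fit of this difference, added after seeing the data, called 0 of 25 members (0.0879% of all probe sets, 0.0366% higher and 0.0513% lower; 5 members and 7.14% of all at an unadjusted p under 0.05). In simulated data this fit recovered 0% of 4-fold changes, so its lack of calls says nothing about the size of the difference.

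**Figure D5:**
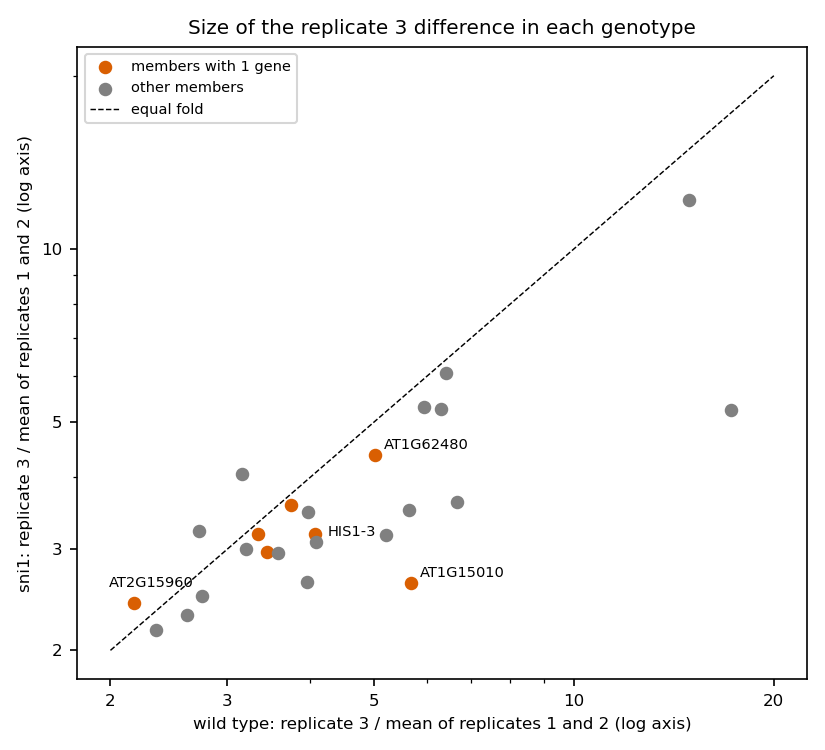
Fold of replicate 3 over the mean of replicates 1 and 2 in wild type (horizontal, log axis) and sni1 (vertical, log axis) for the 25 members, with members of 1 gene in orange and a dashed line at equal folds. Points below the line, 22 of 25, have the larger fold in wild type.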

How the data were processed

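The authors deposited linear signal intensity for every probe set of each array. Per the submitters' processing notes they were made with MAS5, which computes a probe set's signal from its perfect-match and mismatch probes. Its version and settings, and a genome build, are not given here. Array trimmed means were equal at 100.01, and precision is limited by having 6 arrays.

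Control probe sets (64) were left out. Names came from the platform annotation, updated through gene identifiers of TAIR10.1: of 22746 probe sets 13513 had 1 gene (13436 matched a locus), 503 several and 8730 none. For list genes with several probe sets, that of highest mean was taken. Sequences were not used here. Keyword lists held 1 member, LTI30 in the cold list. The list made from LEA and dehydrin words had 3 genes above the filter and 0 members. Both replicate 3 arrays were above the other 4 in 1 of these 3 genes and below them in 1. Members and lists were chosen with earlier results of these data known.

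Values were transformed as log2(value + 2.89), the constant being the 10th percentile, so low signals give understated folds. Probe sets with a mean under 24.5, the 40th percentile, were left out, and 13648 were tested with limma 3.58.1 (intensity trend, two-sided, Benjamini-Hochberg over all tested, threshold 0.05) in R 4.3.3. All 25 members passed this filter, which their minimum mean of 50 ensures. Figures used matplotlib 3.10.9. Members with 1 gene, the largest ratio, genotype calls, list genes and the edges of the rule were named, and further probe sets were singled out after their values were seen.

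Same-numbered arrays deviated together from their genotype means (correlations across probe sets 0.74, 0.67 and 0.79, and 0.73, 0.67 and 0.78 without the members), so the numbers were taken to pair the samples. This comes from the data and not from the labels. On simulated data the genotype fit recovered 10% of 2-fold and 76% of 4-fold changes without the block and 49% and 82% with it. The fit of replicate 1 against 2 recovered 26% and 71%.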

Additional observations from a re-analysis of the deposited data

How the results depend on the processing

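The rule gave 25 members with the values as deposited, 47 after median centring, 150 with a smallest ratio of 1.5 and 4 with 3. Counts stayed within 1.5 times of 25 after quantile normalization or cyclic loess (21 each) and with a minimum mean of 25 (26) or 100 (18). For the genotype difference, the fits without the replicate block, whose spread the choice of members widens, gave 0 higher and 0 lower members. This held with each array left out. With the replicate block 1 was higher and 2 lower. With the block and quantile normalization or cyclic loess these counts were 2 and 2 each. Without both arrays of replicate 1 they were 1 and 1, and without both of replicate 2 they were 1 and 2. Without both of replicate 3 they were 2 and 2. The 6 fits with the block called 496 to 864 of all 13648 probe sets higher and 291 to 606 lower. AT1G62480 passed in all of these 6 fits with the block and 262947_at likewise, while AT3G15450 passed in 3, not with quantile normalization, cyclic loess or without replicate 1. Removing 1 array without the block leaves replicate 3 unevenly represented, so log2 differences then swing by construction: from -0.391 to 0.714 for AT3G03870, from -0.426 to 0.772 for HIS1-3, from -1.16 to 0.121 for AT3G15450, from -1.31 to 0.199 for AT1G62480, from -0.532 to 0.266 for AT2G15960, from -0.199 to 1.05 for AT1G15010, from -0.976 to 0.142 for LTI30, from -1.14 to 1.80 for 253161_at and from -0.374 to 2.03 for 262947_at. With the block, AT3G03870 (-0.0575), HIS1-3 (-0.127) and 253161_at (-0.0973) changed sign without both arrays of replicate 1, and AT2G15960 (0.000144) and AT1G15010 (-0.0657) without both of replicate 2. None of these 5 passed in any fit of the genotype difference.

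For replicate 1 against replicate 2, the 9 members with replicate 2 higher became 5 without the filter and 5 without the intensity trend. With 1 array left out they were 6 to 8. Over all probe sets the calls with replicate 2 higher fell too. They were 628 of 13648 in the main fit, 418 of 22746 without the filter and 245 of 13648 without the trend. With 1 array left out they were 197 to 493. The 1 member with replicate 1 higher became 2 after quantile normalization and 0 without the trend, and 0 to 2 with 1 array left out. It was lost without wild-type replicate 2. The calls with replicate 1 higher over all probe sets were 472 in the main fit, 574 after quantile normalization and 153 without the trend. With 1 array left out they were 140 to 299. LTI30 passed after quantile normalization (0.57, limma adjusted p = 0.0456). HIS1-3 ran from -0.110 to 0.645 and AT1G15010 from -0.934 to 0.0433 with 1 array left out. The added fit of the genotype difference in replicate 3 against that in the other replicates called 3 members as lower after median centring. In that setting 70 of all 13648 probe sets were called lower and 39 higher, against 7 and 5 with the values as deposited. In its other settings the fit called 0 members. It could not be fitted with 1 array left out, which leaves no residual degrees of freedom. Array measures that follow replicate 3 cannot be told apart from the plants' own differences with 2 arrays per number.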

Other observations

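Among the 125 probe sets with a ratio from 1.5 up to 2, 70 have 1 gene. Replicate 3 is highest in all 125 by their choice. The genes below were picked after their values were seen, stand for no group, and are given as values only. XERICO, a RING-type protein known to raise abscisic acid levels, stood in replicates 1, 2 and 3 at 219.6, 289 and 747 in wild-type plants, against 322, 286 and 566 in sni1. DI19, a zinc-finger protein named for its induction by drought, stood at 1413, 1491 and 2554 in wild-type plants, against 1412, 1381 and 2328 in sni1. ALDH7B4, an aldehyde dehydrogenase known to respond to dehydration, stood at 220.0, 209 and 490.0 in wild-type plants, against 246, 229 and 434 in sni1.

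AT4G27450, which is annotated with the same YGL and LRDR motifs as AT3G15450, had the stepwise order of that gene. Its signal was 60.5, 292 and 624 in wild-type plants, against 119, 383 and 899 in sni1, with sni1 higher in each pair, the opposite of AT3G15450. ALDH6B2, an enzyme of valine breakdown, stood at 335, 244 and 519 in wild-type plants, against 312, 276 and 530.2 in sni1. FATB, a plastid thioesterase that releases saturated fatty acids, stood at 496, 542 and 1411 in wild-type plants, against 414, 508 and 964 in sni1. IAA18, a repressor of auxin response, stood at 173, 152 and 387 in wild-type plants, against 165, 158 and 339 in sni1.

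The rule leaves out plastid-encoded genes. Of 69 such probe sets with a mean of 50 or more, 2 met its other conditions, cemA (1124, 858 and 2977 in wild-type plants, against 878, 795 and 2440 in sni1; ratio 2.17) and ycf4 (879.8, 865 and 1833, and 775, 697 and 1889; ratio 2.08). Both replicate 3 arrays lay above the other 4 in 30 of the 69. None of 36 control probe sets with a mean of 50 or more met the ratio of 2, and 9 had both replicate 3 arrays above the other 4.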
